A study of Mus musculus with 28 samples.

Results

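The genes described here are 7 that mark cerebellar Purkinje cells, Pcp2, Calb1, Car8, Itpr1, Pcp4, Rora and Ppp1r17, out of 20660 genes that could be named on the arrays. They were taken as the array probes whose accession maps to these symbols, and the probe with the highest mean level over all 28 arrays stood for a gene. Car8 had 2 probes, and each of the other 6 genes had 1. All 7 were measured and passed the filter on dim probes, which asked, in each of the 3 series, for 1 or more fractions with a signal well above background. By textbook knowledge, Pcp2, Ppp1r17 and Car8 were placed in a cerebellum-restricted group of 3, and Calb1, Itpr1, Rora and Pcp4 in a group of 4 that is also high in parts of the forebrain. These group names are kept below as labels and do not rest on the levels in these arrays.

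The data come from Transcriptome Tomography, which cuts a frozen brain along 1 axis, pools neighbouring sections as fractions and profiles each fraction. The donors were 3 male C57BL/6J mice aged 3 weeks with no transgene or mutation named, 1 mouse for each plane, and 1 Agilent array was hybridised per fraction. There were 12 coronal, 6 horizontal and 10 sagittal fractions. A position therefore has no replicate, a plane cannot be told apart from its mouse, and the p-values below measure the spread between fractions of 1 brain. The last coronal fraction also holds tissue of a following one, so it may be wider than the others.

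Purkinje cells are the large inhibitory neurons whose axons are the sole output of the cerebellar cortex. They receive glutamate from granule cell axons and from climbing fibres, and metabotropic receptor signalling through IP3 releases calcium from stores in their dendrites and spines. Their high content of calcium-binding proteins and of the IP3 receptor makes these transcripts common markers of the cell, although several of them are also made by neurons of the striatum, hippocampus, cortex or thalamus.

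Levels are log2 of the processed signal relative to the 75th percentile of the same array, so a difference of 1 is a doubling. They compare fractions for 1 probe and not the abundance of different genes. The coronal axis was oriented by marker lists: the hindbrain list was highest in fraction 1 (mean 4.69 above its average over the series) and the olfactory bulb list in fraction 12 (5.84). Granule cells share the cerebellar cortex with Purkinje cells, and their list was highest in coronal fraction 2 (3.91). In bulk fractions, fewer cells of a type and less RNA per cell cannot be told apart.

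Pcp2, a modulator of G protein signalling found almost exclusively in Purkinje cells and some retinal neurons, was well above background in all 12 coronal fractions. Its level was 8.67, 8.92, 8.63 and 6.96 in coronal fractions 1 to 4. In fractions 5 to 12 the lowest level was -0.23 (fraction 8), the median 1.17 and the highest 2.61 (fraction 11). All of fractions 1 to 4 stood above all of 5 to 12, where 7 of the 8 fractions still lay above the array's 75th percentile. Fractions 1 to 4 were 7.10 ± 0.49 (SE) log2 above fractions 5 to 12, which is 137-fold (limma, adjusted p = 2.22e-05; exact permutation test over 495 choices of 4 fractions, two-sided, p = 0.00202, the smallest it can give). The exact test treats the 12 fractions as exchangeable, although they lie in order along 1 brain. Among all 32364 probes tested, 4.68% had all of fractions 1 to 4 above all of 5 to 12, and 3.8% had them below. The exact p-values here and below are therefore not a measure of how rare such a pattern is. Of the summed linear signal over the 12 coronal fractions, 98.5% lay in fractions 1 to 4.

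Ppp1r17, known as G-substrate, is a phosphatase inhibitor that is phosphorylated by cGMP-dependent protein kinase in Purkinje cells. It stood at 2.56, 3.50, 3.46 and 1.44 in coronal fractions 1 to 4. Across fractions 5 to 12 it ran from -5.11 (fraction 9) over a median of -3.28 to -1.36 (fraction 11). The groups did not overlap, and the probe was not well above background in fractions 9 and 10. The difference was 5.85 ± 0.65 (SE) log2, or 57.7-fold (limma, adjusted p = 0.000459; exact p = 0.00202), and 96.0% of the linear signal lay in fractions 1 to 4. The fold rests on fitted means of which 6 of the 8 rostral fractions were well above background, and normexp background correction gave 4.55 log2. Within the rostral fractions, 11 and 12 (-1.36 and -1.51) lay above all of fractions 5 to 10, whose highest was -2.65. Pcp2 did likewise in fraction 11 (2.61, against a highest of 1.97 in fractions 5 to 10) but not in fraction 12 (1.12). Fractions 11 and 12 were on another slide than fractions 3 to 10, so slide and position cannot be told apart for this rise.

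Car8, a carbonic anhydrase-related protein that has no enzymatic activity and binds the IP3 receptor, was the third gene without overlap. Its level was 2.20, 3.44, 3.95 and 1.84 in coronal fractions 1 to 4, and between -2.88 (fraction 12) and -0.75 (fraction 10) in fractions 5 to 12, with a median of -1.53. This probe was well above background in all 12 coronal fractions. The difference was 4.54 ± 0.45 (SE) log2, or 23.3-fold (limma, adjusted p = 0.000213; exact p = 0.00202), and 92.7% of the linear signal lay in fractions 1 to 4. The second Car8 probe gave 4.48 log2 (adjusted p = 0.00442). It was not well above background in coronal fractions 11 and 12 (-3.52 and -4.85), which enter its rostral mean. On that probe coronal fraction 8 stood at 0.79 while the other fractions from 5 to 10 lay between -3.00 and -2.37. The highest-mean probe showed no such value in fraction 8 (-1.27), and without fraction 8 the second probe gave 4.96 (adjusted p = 0.00073), a check added after the data were seen.

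**Figure D1:**
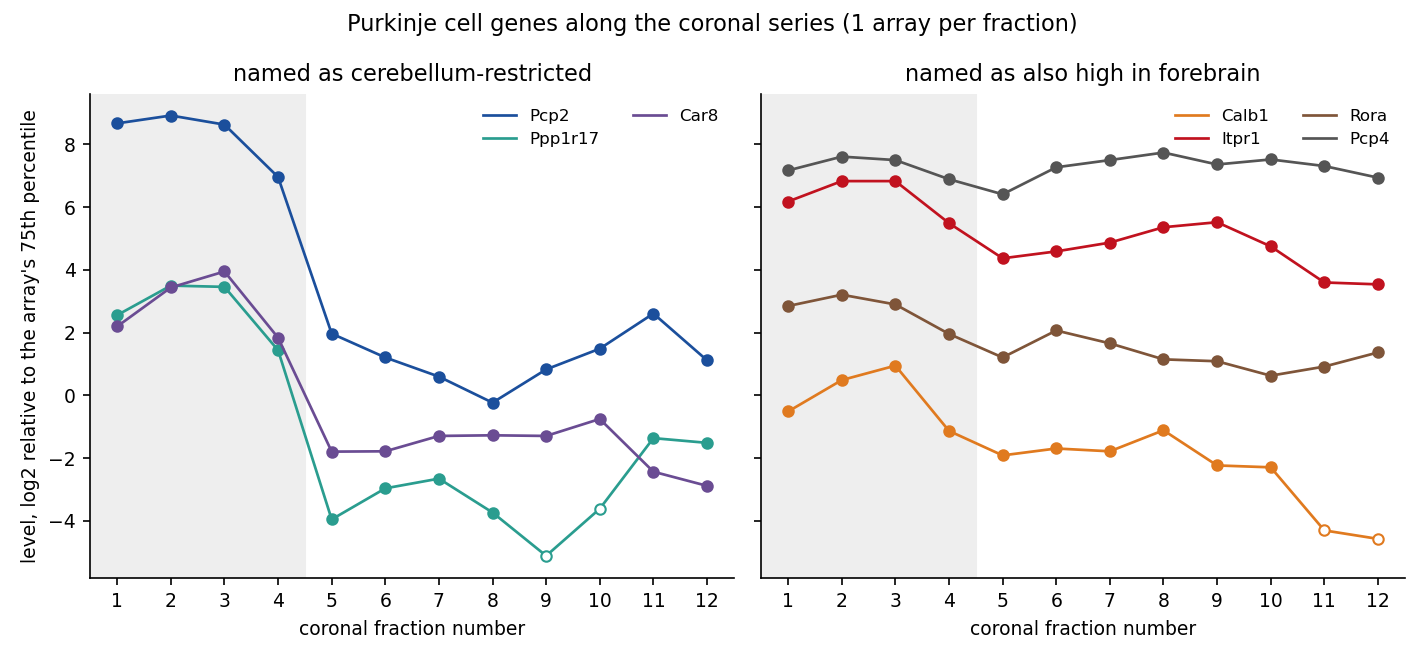
Level of each gene (log2 relative to the array's 75th percentile) against coronal fraction number, 1 array per fraction and no error bar because no position was repeated; open circles are not well above background, and grey marks fractions 1 to 4. Pcp2, Ppp1r17 and Car8 fall between fractions 4 and 5 without overlap, while Pcp4 stays between 6.41 and 7.74; heights of different genes are not comparable.

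Calb1, which encodes the calcium buffer calbindin, is abundant in Purkinje cells and also made by neurons of the striatum, cortex and hippocampus. Its level was -0.51, 0.49, 0.95 and -1.13 in coronal fractions 1 to 4. In fractions 5 to 12 it ran from -4.57 (fraction 12) over a median of -2.07 to -1.11 (fraction 8), and fractions 11 and 12 were not well above background. Fraction 8 (-1.11) stood as high as fraction 4, so the groups overlapped. The difference was 2.44 ± 0.65 (SE) log2, or 5.42-fold (limma, adjusted p = 0.0308; exact p = 0.00606), and 71.0% of the linear signal lay in fractions 1 to 4. Here too 6 of the 8 rostral fractions were well above background, and normexp gave 1.62 (adjusted p = 0.00555). The call was lost without coronal fraction 1 (2.59, adjusted p = 0.0617), 2 (2.26, 0.115) or 3 (2.10, 0.116).

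Itpr1 encodes the IP3 receptor that releases calcium from the endoplasmic reticulum, and Purkinje cells hold more of it than other neurons. It stood at 6.18, 6.83, 6.83 and 5.49 in coronal fractions 1 to 4. In fractions 5 to 12 the lowest level was 3.54 (fraction 12), the median 4.67 and the highest 5.52 (fraction 9). A second, lower peak thus lay in fractions 8 and 9, where the level (5.36 and 5.52) was close to that of fraction 4. The difference was 1.76 ± 0.39 (SE) log2, or 3.39-fold (limma, adjusted p = 0.0139; exact p = 0.00404), with 62.1% of the linear signal in fractions 1 to 4. It was not called without fraction 2 (1.60, adjusted p = 0.0648) or 3 (1.59, 0.0605).

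Rora encodes the nuclear receptor RORα, which Purkinje cells need to mature and survive, and it is also a known marker of thalamic neurons. Its level was 2.85, 3.21, 2.90 and 1.96 in coronal fractions 1 to 4. In fractions 5 to 12 it ran from 0.63 (fraction 10) over a median of 1.18 to 2.07 (fraction 6). Fraction 6 alone exceeded fraction 4, and the difference was 1.47 ± 0.27 (SE) log2, or 2.77-fold (limma, adjusted p = 0.00606; exact p = 0.00404). The linear signal was spread more evenly, with 58.1% in fractions 1 to 4.

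Pcp4 encodes a small protein that binds calmodulin and speeds its exchange of calcium, and it is made in Purkinje cells, striatum, cortex and hippocampus. Its level was 7.17, 7.61, 7.50 and 6.89 in coronal fractions 1 to 4. Fractions 5 to 12 spanned 6.41 (fraction 5) to 7.74 (fraction 8), with a median of 7.34, and thus covered the whole range of fractions 1 to 4. The difference was 0.04 ± 0.23 (SE) log2 (limma, adjusted p = 0.935; exact p = 0.887), and its sign turned with processing, to -0.01 under normexp background correction. Fractions 1 to 4 held 33.6% of the linear signal and are 4 of the 12 fractions.

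Counted over the 7 genes, 6 were called higher in fractions 1 to 4 and 0 lower, with a median difference of 2.44 log2. Fractions 1 to 4 had been chosen as the end where earlier results put hindbrain and cerebellum genes. The direction of these calls, and of those of the cerebellar and hindbrain lists, is therefore not an independent finding. Of all 32364 probes tested, 6.11% were called higher and 5.34% lower, with a median of -0.01. The 3 cerebellum-restricted genes were also the 3 without overlap between the groups, against 4.68% of all probes (1514), and none of the 4 genes also high in forebrain was. The differences of the 3 (4.54 to 7.10) lay above those of the 4 (0.04 to 2.44). Hindbrain and granule cell genes moved with them: 5 of 5 tested hindbrain genes (3.51 to 5.87) and 7 of 8 granule cell genes (1.89 to 8.92 over all 8) were higher in fractions 1 to 4, and their part in the result was not tested.

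A direct test asked whether each gene was less weighted to fractions 1 to 4 than Pcp2, from its log2 level minus that of Pcp2 in every fraction. The difference from Pcp2 was -1.25 for Ppp1r17, -2.55 for Car8, -4.66 for Calb1, -5.33 for Itpr1, -5.63 for Rora and -7.06 for Pcp4. The difference of Pcp2 (7.10) was far above that of the median probe, and limma called 100% of the other probes (32350 of 32363) as less caudal than Pcp2, as did the exact permutation test (32348, also 100% after rounding). That Car8 and the 4 genes also high in forebrain were called (exact p = 0.00808 for Car8 and 0.00202 for each of the 4) is therefore no result about them. Ppp1r17 was not separated from Pcp2 by the exact test (p = 0.0949), and its limma call (adjusted p = 0.0483) was lost without any 1 of coronal fractions 1, 2, 3, 6, 7, 8 or 12 (-1.01 to -1.37). All probes share the Pcp2 values in that fit, and limma pools the spread over probes, so its p-values are too small.

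Slide and coronal position overlapped in part. Coronal fractions 1 and 2 shared a slide, fractions 3 to 10 were on another, and fractions 11 and 12 on one more. With slide as a term, Pcp2 (6.82, adjusted p = 0.00481), Ppp1r17 (6.12, 0.00481) and Car8 (4.25, 0.00796) remained called, and Calb1 (1.75, 0.0834), Itpr1 (1.26, 0.0983) and Rora (1.13, 0.11) did not. Since the other slides each lie on 1 side of the contrast, this fit draws its differences from fractions 3 to 10. Fitted on those fractions alone, where the differences are the same and the spread is estimated anew, the adjusted p was 0.0163 for Pcp2, 0.0216 for Ppp1r17 and 0.0255 for Car8. There Calb1 (0.12), Itpr1 (0.14) and Rora (0.155) missed the threshold, with only fractions 3 and 4 on the caudal side. Over all probes, calls fell to 407 higher and 390 lower with slide as a term, and to 71 and 21 on fractions 3 to 10.

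**Figure D2:**
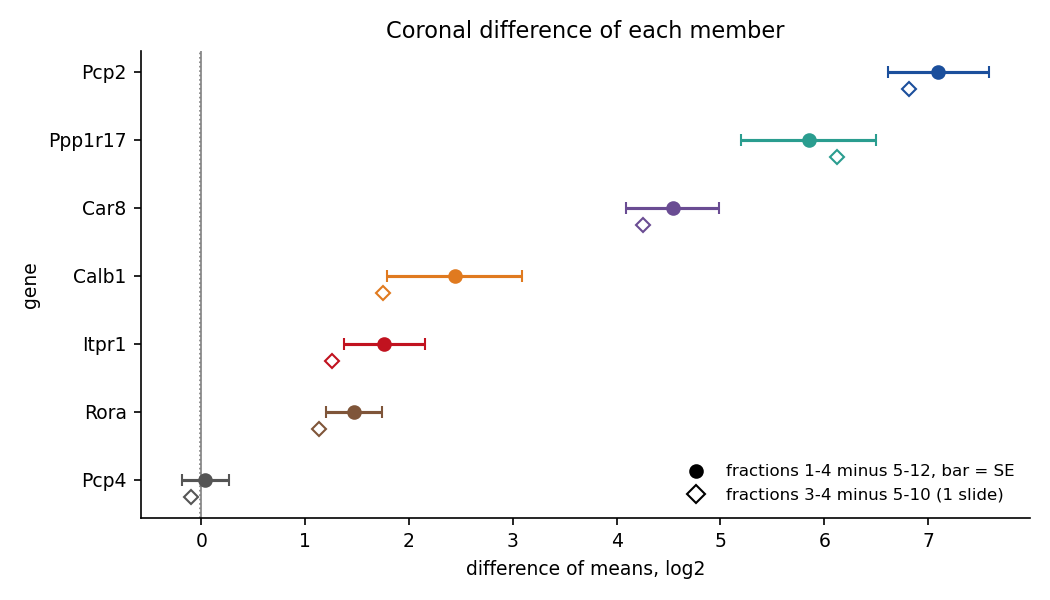
Difference of mean log2 level between coronal fractions 1 to 4 and 5 to 12 for each gene (filled circles, bar is the SE of the limma fit), with the value from fractions 3 to 10 on 1 slide below it (open diamonds); the dotted line is the median of all probes. Pcp2, Ppp1r17 and Car8 lie between 4.54 and 7.10, and Pcp4 lies at 0.04.

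Smooth trends along the axis, tested as a natural spline of fraction number, were called for 6 of the 7 genes in the coronal series, where 33.7% of all probes were called. Pcp4 was the exception (adjusted p = 0.255), and the others had adjusted p between 0.00136 (Pcp2) and 0.0161 (Itpr1). With slide as a term none of the 6 was called (0.0887 for Pcp2 to 0.538 for Itpr1), and 241 of all 32364 probes were. On fractions 3 to 10 alone, which are 1 slide, 5 of the 6 were called (0.0108 for Pcp2 to 0.0347 for Ppp1r17) and Rora was not (0.0725). There 4164 of all probes were called, against 10910 in the main fit, so these losses are no result about the 6 genes. The ratio of the highest to the lowest coronal fraction was 566 for Pcp2, 114 for Car8, 9.81 for Itpr1, 5.98 for Rora and 2.53 for Pcp4. It was at least 189 for Ppp1r17 and at least 46.1 for Calb1, whose lowest fractions were not well above background and so give only a bound. Itpr1 lost its coronal trend call without fraction 11 (0.0584) or 12 (0.066).

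In the horizontal series, 2 of the 7 genes had a called trend, Itpr1 (adjusted p = 0.0276) and Car8 (0.0434), with 15.8% of all probes called. The count depended on the processing: with the array median as scale all 7 genes were called, among 19347 probes, and with a straight line in place of the curve none of the 7 was, with 1 probe called in all. Pcp2 was lowest in fraction 1 (2.13), stood at 7.23, 7.32 and 7.07 in fractions 2 to 4, and at 5.46 and 4.60 in fractions 5 and 6. Ppp1r17 had the same order of high and low fractions, from -5.84 in fraction 1, where it was not well above background, to 1.37, 1.40 and 1.26 in fractions 2 to 4. Fraction 1 was the fraction with the highest mean of the cortex list (1.28) and the lowest of the granule cell list (-2.83). The lists of myelin (-2.17), olfactory bulb (-1.91), striatum (-1.26), thalamus (-0.62) and hippocampus (-0.52) were also lowest there. Car8 ran from -1.14 in fraction 1 to 1.45 in fraction 3 and back to -1.04 in fraction 6.

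The genes also high in forebrain spanned a narrower range along the horizontal axis. Itpr1 stood between 4.13 (fraction 6) and 5.79 (fraction 2), Rora between 1.05 (fraction 6) and 2.60 (fraction 4), and Calb1 between -1.82 and -1.01. Pcp4 was lowest in fraction 1 (5.63) and within 6.86 to 7.35 in the other 5. The highest fraction exceeded the lowest by 36.6-fold for Pcp2 and at least 32.9-fold for Ppp1r17, by 6.02-fold for Car8, and by 1.76-fold to 3.30-fold for Calb1, Rora, Itpr1 and Pcp4. With 6 fractions the call turned on single ones: Car8 and Itpr1 were not called without fraction 3 (0.129 and 0.0821), 4 (0.105 and 0.0972) or 6 (0.0728 and 0.102). Of all probes, 0 were called without fraction 3 or 4 and 1336 without 6, against 5115 with every fraction in. Pcp2 and Ppp1r17 were called without fraction 1 (0.0385 and 0.0225) or 2 (0.0453 and 0.0315), where 2213 and 3324 of all probes were called.

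Along the sagittal axis, trends of Car8 (adjusted p = 0.0223), Calb1 (0.023) and Ppp1r17 (0.0331) were called, 3 of 7 against 14.7% of all probes. Pcp2 stood at 0.15 in sagittal fraction 1 and at 5.51 and 5.83 in fractions 10 and 9, with fractions 2 to 8 between 7.03 and 7.88. Ppp1r17 was not well above background in fraction 1 (-6.00) and lay between -1.10 and 1.81 elsewhere. Car8 ran from -1.82 in fraction 1 to 2.26 in fraction 3, with -0.71 and -0.37 in fractions 9 and 10. The granule cell list (-3.34, -1.41 and -1.36 relative to its series mean) and the myelin list (-2.86, -0.72 and -0.31) were low in fractions 1, 9 and 10 as well.

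Calb1 was lowest in sagittal fraction 1 (-3.82, not well above background) and highest in fraction 3 (-0.34), and stood at -1.89 and -1.65 in fractions 9 and 10. Itpr1 ranged from 4.11 to 6.17 and Rora from 0.85 to 2.54, both lowest in fraction 1. Pcp4 kept within 7.02 to 7.68, a ratio of 1.58, and its trend was far from called (0.888). Fraction 1 had the dimmest array of the study, with a 75th percentile signal of 135.2 against up to 573.5 elsewhere. Without it none of the 3 called trends was called (0.144 for Car8, 0.187 for Calb1 and 0.167 for Ppp1r17). Of all probes 0 were called without it, so this loss is no result about these genes. The trend of Ppp1r17 was also lost without any 1 of fractions 3 to 7, that of Calb1 without 5 or 6, and that of Car8 without 4 or 6. Calls were also gained, by Pcp2 without fraction 2 (0.0414) or 10 (0.043), by Itpr1 without 9 (0.0241) or 10 (0.0298), and by Rora without 9 (0.00934) or 10 (0.0213). Over all probes, 4767 were called with every fraction in, and 2020 to 3000 without 1 of fractions 3 to 7. The number was 2791 without fraction 2, 12543 without 9 and 15244 without 10.

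The ends of the sagittal series were compared by counting fractions from both edges, although the labels do not say where the midline lies. Fractions 5 and 6, which are neighbours on 1 slide, differed by 0.02 log2 for Pcp2, 0.04 for Car8, 0.07 for Rora, 0.08 for Pcp4, 0.09 for Itpr1, 0.13 for Ppp1r17 and 0.34 for Calb1. Fractions 1 and 10 lay on different slides, and between them the absolute difference was 5.36 for Pcp2, 1.45 for Car8, 0.92 for Itpr1, 0.64 for Rora and 0.25 for Pcp4. Calb1 and Ppp1r17 were not well above background in fraction 1, so no difference is given for them. Fractions 1 to 4 were on 1 slide and 5 to 10 on another, so every pair but 5 and 6 crosses slides.

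**Figure D3:**
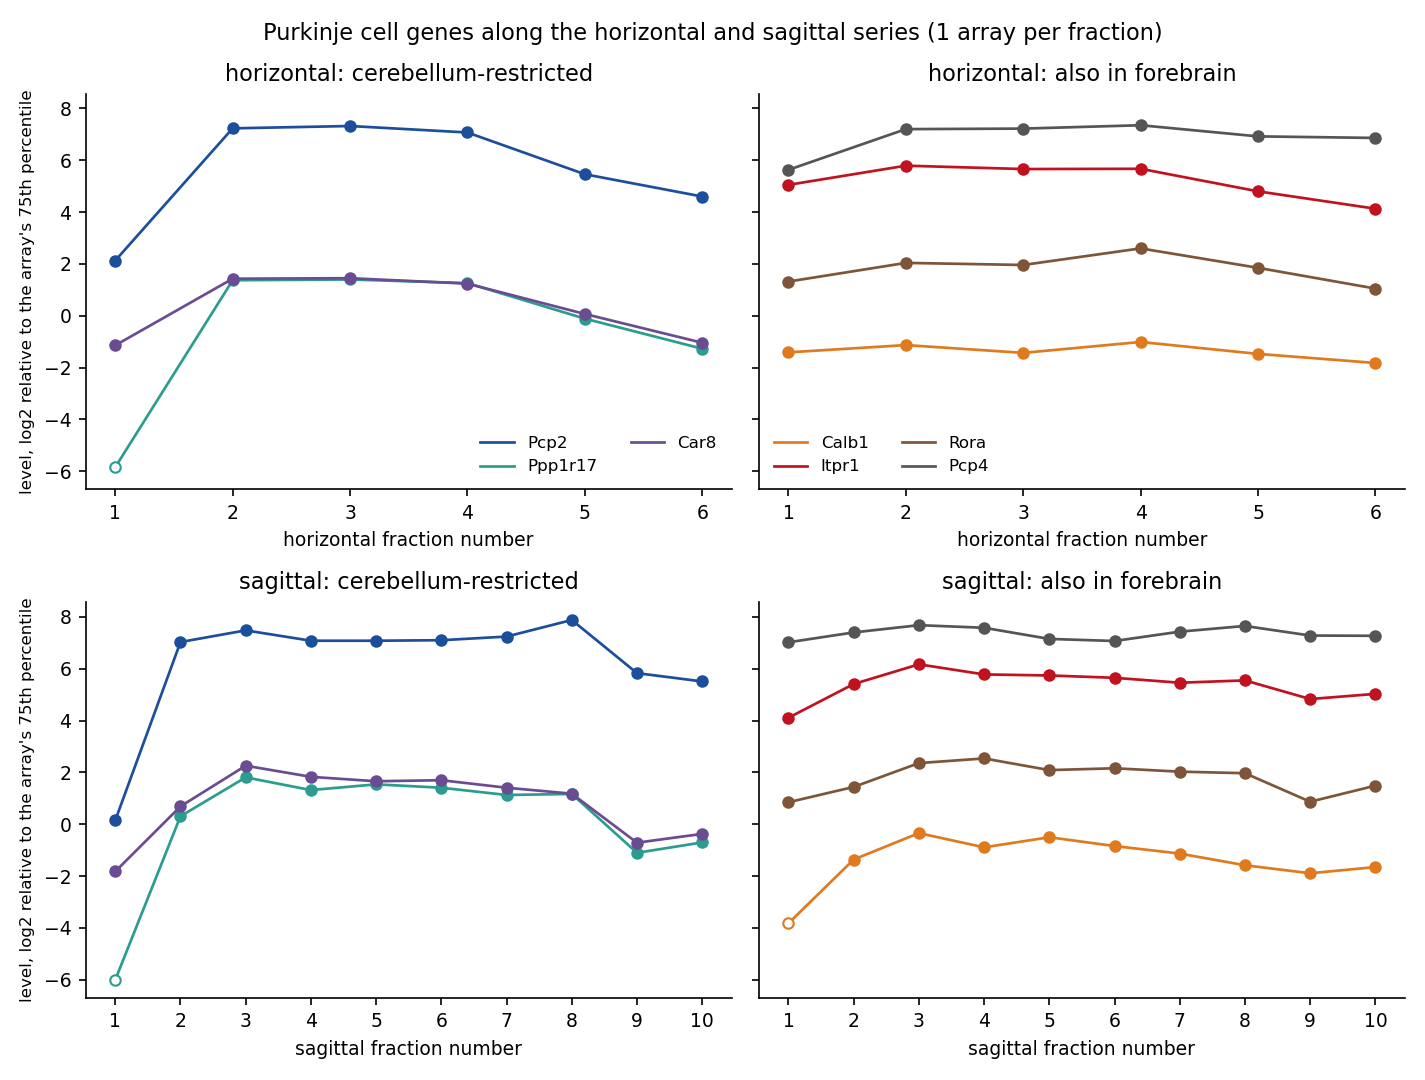
Level of each gene (log2 relative to the array's 75th percentile) against horizontal (top) and sagittal (bottom) fraction number, 1 array per fraction; open circles are not well above background. Pcp2 drops to 2.13 in horizontal fraction 1 and to 0.15 in sagittal fraction 1, while Pcp4 stays between 5.63 and 7.68 in both series.

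Levels of the genes in the rostral fractions were set beside the marker lists. Over coronal fractions 5 to 12, Itpr1 followed the mean of 8 striatal marker genes (r = 0.875, and 0.969 over fractions 5 to 10 alone) and of 6 cortical ones (0.919 and 0.868), and both lists were highest in fraction 8 or 9. Rora followed the thalamic list (0.906 and 0.946), which like Rora was highest in fraction 6. Other lists moved with Rora too: the Purkinje calcium and IP3 list (0.784 and 0.766), the hippocampal list (0.573 and 0.762) and the myelin list (0.449 and 0.824). Pcp4 was nearest to the striatal list (0.735 and 0.746), with its highest level in fraction 8.

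For Calb1, Car8 and Ppp1r17 the values turned on fractions 11 and 12, which were on another slide. Calb1, not well above background there, had r = 0.936 with the cortical list over fractions 5 to 12 and 0.249 over 5 to 10, and Car8 had 0.858 and 0.016. Ppp1r17 had 0.782 with the granule cell list and 0.757 with the olfactory bulb list over fractions 5 to 12, and 0.584 and -0.0112 over 5 to 10. Pcp2 had 0.67 with the granule cell list and 0.54 over 5 to 10. These correlations are descriptions over 8 or 6 neighbouring fractions of 1 brain, which share its anatomy, and the shorter range was chosen after seeing the data.

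**Figure D4:**
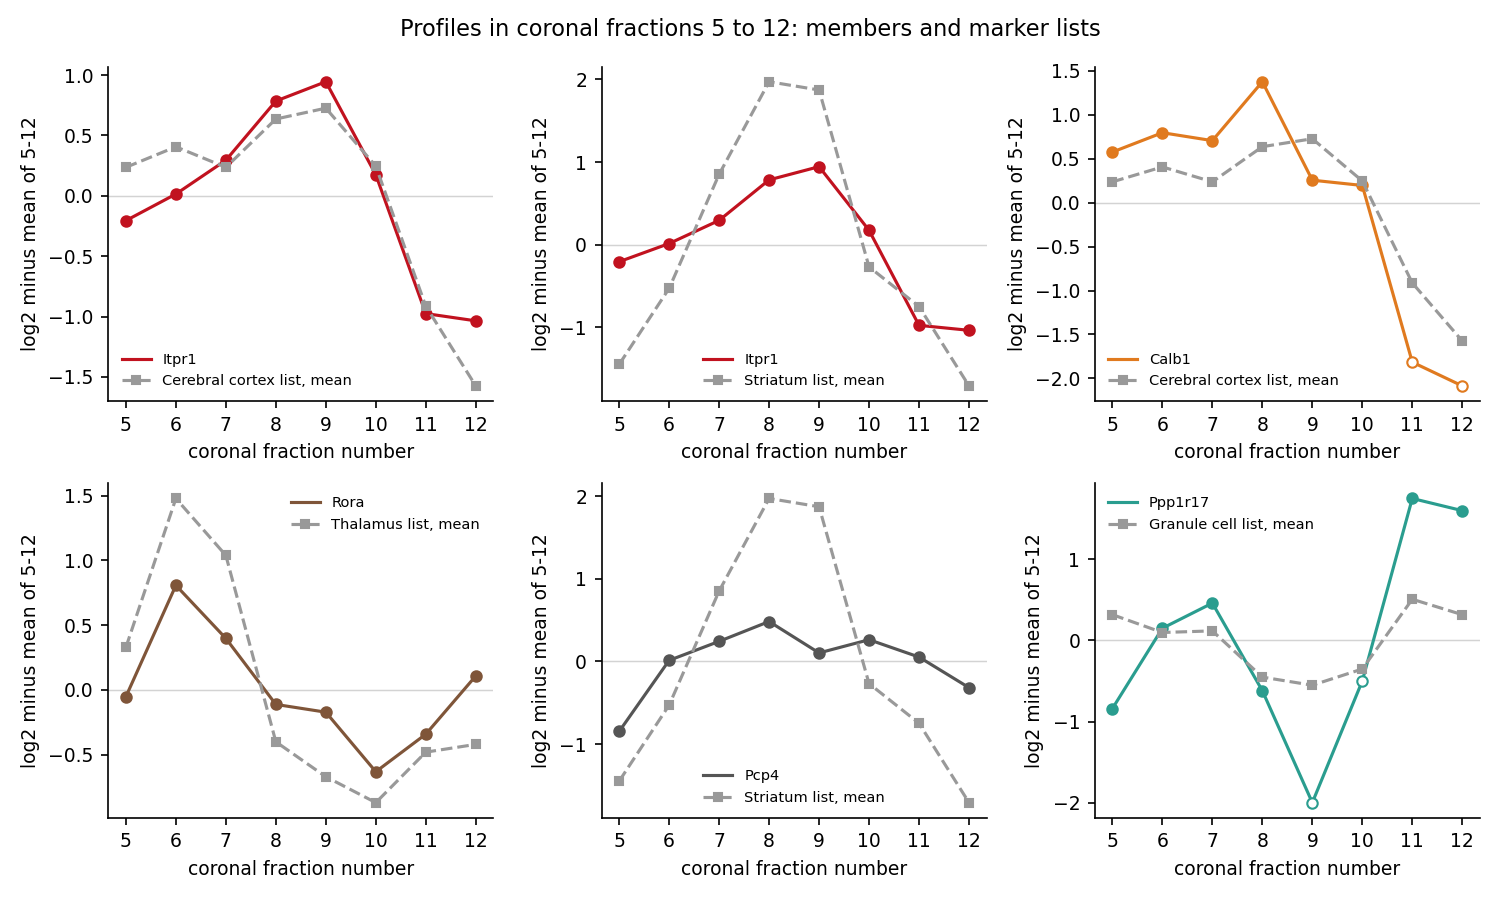
Level of 5 of the genes (solid) and mean level of a marker list (dashed) in coronal fractions 5 to 12, each as log2 minus its own mean over these fractions; open circles are not well above background. Itpr1 and the cortex and striatum lists peak in fraction 8 or 9, Rora and the thalamus list in fraction 6, and Ppp1r17 is highest in fractions 11 and 12.

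Of the 7 genes, Pcp4 had the lowest correlations with the others, and the other 6 correlated with each other at 0.628 to 0.927 over the 28 fractions. Over these, Pcp2 correlated with Ppp1r17 at 0.927, with Car8 at 0.898, with Rora at 0.741, with Itpr1 at 0.72, with Calb1 at 0.683 and with Pcp4 at 0.244. Itpr1 correlated with Car8 at 0.915 and with Calb1 at 0.909. Pcp4 correlated with none of the other 6 above 0.418. Pcp2 and Pcp4 had r = 0.008 in the coronal, 0.952 in the horizontal and 0.607 in the sagittal series. Over coronal fractions 5 to 12 alone, the other 6 genes correlated in both directions. There r ran from -0.858 (Itpr1 and Ppp1r17) to 0.842 (Calb1 and Itpr1), with -0.696 for Pcp2 and Itpr1 and 0.382 for Pcp2 and Ppp1r17. All these values carry the shared position of the fractions and have no p attached.

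The genes with the most similar profile over the 28 fractions were, for Pcp2, Crtam (r = 0.982), an adhesion molecule first known from lymphocytes, Gabra6 (0.982), a GABA-A receptor subunit of granule cells, and Bcl2l15 (0.976). For Ppp1r17 they were Cbln1 (0.967), a synaptic organiser released by granule cells, Zfp385c (0.957) and Krt25 (0.955). For Car8 they were Nrk (0.97), Casq2 (0.96), a calcium-binding protein of the endoplasmic reticulum, and Slc1a6 (0.957), the glutamate transporter of Purkinje cell spines. For Itpr1 they were Rgs8 (0.937), a regulator of G protein signalling in Purkinje cells, Mtcl1 (0.936) and Ndst3 (0.935).

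For Calb1 the nearest were Cdh7 (0.94), Cnr1 (0.918), the cannabinoid receptor of nerve terminals, and Pvalb (0.914), another calcium buffer. In the horizontal series alone r was 0.723 for Cdh7, 0.876 for Cnr1 and 0.589 for Pvalb. The Pvalb and Rgs8 probes named for their similar profiles are not the probes that gave the coronal differences of these genes below. For Rora they were Tmem25 (0.947), Epha8 (0.943) and Fam107b (0.936). Pcp4 had no close partner: its nearest gene, Syndig1l, reached 0.778, and 0 probes exceeded 0.85, against 34 for Calb1, 70 for Itpr1, 88 for Pcp2, 123 for Ppp1r17, 153 for Car8 and 171 for Rora.

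Other genes of the same pathways were read from lists. In the calcium and IP3 pathway of Purkinje cells, 7 of 14 genes were higher in coronal fractions 1 to 4 and 0 lower, with a median difference of 1.02 log2, where 6.11% of all probes were higher and 5.34% lower. The largest were Pvalb (3.39 ± 0.54 SE, adjusted p = 0.00257), Homer3, a scaffold that ties metabotropic receptors to the IP3 receptor (2.33 ± 0.39, 0.00325), Inpp5a, which degrades IP3 (1.87 ± 0.30, 0.00262), and the calcium channel gene Cacna1g (1.55 ± 0.30, 0.00782). All 4 lie below Car8 in size. On fractions 3 to 10 alone, with 2 caudal fractions left, they stood at 2.43, 2.07, 1.59 and 1.16 and none was called (adjusted p = 0.0524 to 0.137). There 71 of all probes were called higher. Cacna1g was also lost with slide as a term (0.0882).

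Of the synaptic and other Purkinje genes, 4 of 9 were higher and 0 lower, with a median of 1.05, against 6.11% and 5.34% of all probes. Among them were Slc1a6 (3.55 ± 0.36 SE, adjusted p = 0.000247) and Rgs8 (2.64 ± 0.38, 0.00169), of which Rgs8 was not called on fractions 3 to 10 alone (2.04, 0.0756). Of the Purkinje transcription factors, 5 of 6 tested were higher and 0 lower, with a median of 3.03, against the same shares of all probes. Named were En2, a homeobox gene of the midbrain and hindbrain (5.35 ± 0.46, 7.78e-05), Lhx5 (4.08 ± 0.69, 0.0037), Lhx1 (3.24 ± 0.37, 0.000505) and Ebf1 (2.81 ± 0.36, 0.00089), of which Lhx5 was lost with slide as a term (3.59, 0.0752). On fractions 3 to 10 alone En2 was called (4.74, 0.0306), and Lhx5 (3.59, 0.124), Lhx1 (2.79, 0.0613) and Ebf1 (2.22, 0.0686) were not. Lhx1 was well above background in 2 of the 8 rostral fractions and Lhx5 in 5, and normexp gave 1.76 for Lhx1 and 2.81 for Lhx5. Skor2 and En1 did not pass the filter on dim probes.

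**Figure D5:**
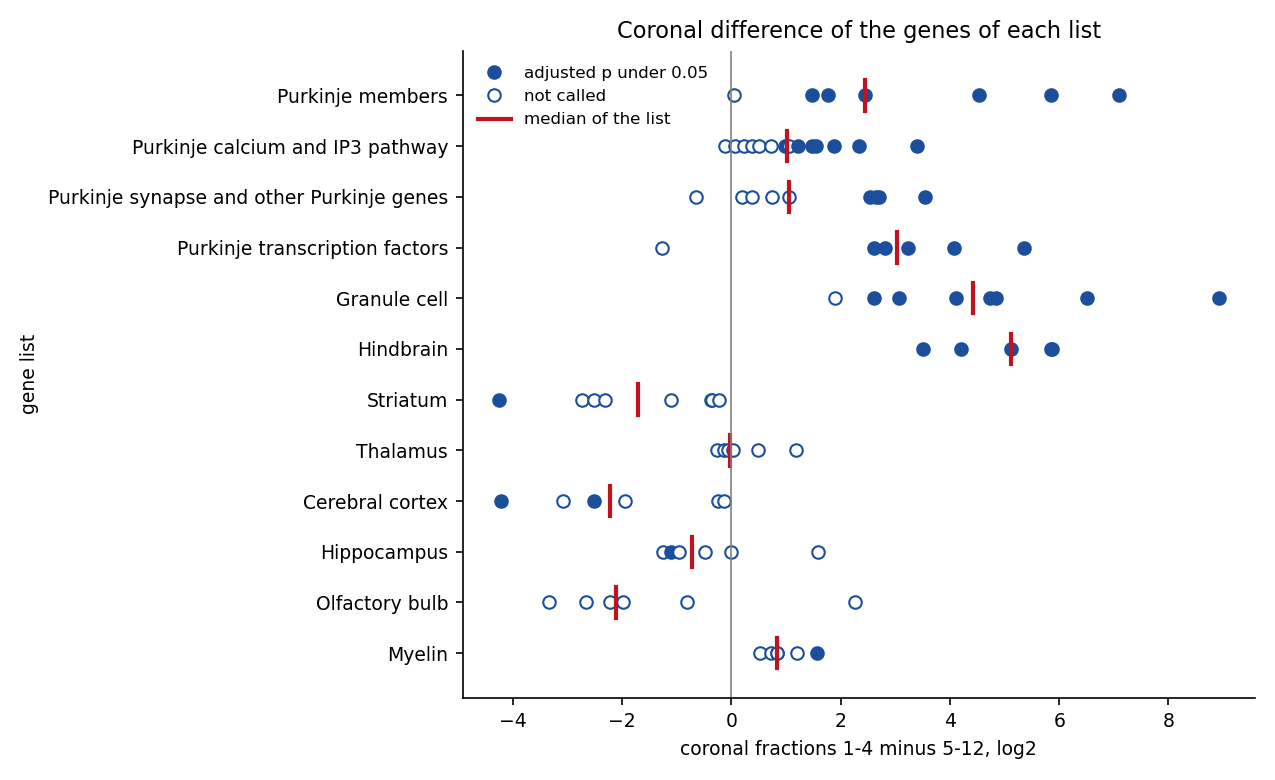
Difference of mean log2 level between coronal fractions 1 to 4 and 5 to 12 for each tested gene of the lists (filled, adjusted p under 0.05; open, not called), with the median of the list in red. The 3 further Purkinje lists have medians of 1.02, 1.05 and 3.03, the granule cell list 4.43 and the hindbrain list 5.12, while the striatum and cortex lists lie at -1.71 and -2.23.

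RORα is known to bind sites in its target genes that contain a half-site, AGGTCA or GGGTCA, and Rora was one of the 7. These letters were therefore searched on both strands of the promoters that RefSeq gave for 3 of the 7 genes (assembly GRCm38.p6). The bases beside the half-site were not examined, so a match is not a full RORα site. Of 32851 promoters, 23.8% held at least 1 of the motifs in the 250 bases before the start (AGGTCA in 14.0%, GGGTCA in 11.6%). The 250 bases are printed 5′ to 3′ on the strand of the gene, with matches in capitals. They are given for the gene of the 7 with the largest coronal difference, the gene with none and Rora itself. For Pcp2, whose table lists 4 starts, the most upstream one is shown (chr8:3625548-3625797, minus strand), and Pcp4 lies at chr16:96467356-96467605 and Rora at chr9:68653536-68653785, both on the plus strand.
Pcp2: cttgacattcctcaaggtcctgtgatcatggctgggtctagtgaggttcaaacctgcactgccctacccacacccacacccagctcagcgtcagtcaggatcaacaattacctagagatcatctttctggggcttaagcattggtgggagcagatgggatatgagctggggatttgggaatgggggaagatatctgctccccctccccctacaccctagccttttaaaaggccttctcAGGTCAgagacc
Pcp4: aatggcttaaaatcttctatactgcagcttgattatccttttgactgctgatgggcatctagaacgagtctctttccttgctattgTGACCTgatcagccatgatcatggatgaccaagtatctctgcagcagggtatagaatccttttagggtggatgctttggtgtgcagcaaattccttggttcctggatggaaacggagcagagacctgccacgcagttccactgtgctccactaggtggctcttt
Rora: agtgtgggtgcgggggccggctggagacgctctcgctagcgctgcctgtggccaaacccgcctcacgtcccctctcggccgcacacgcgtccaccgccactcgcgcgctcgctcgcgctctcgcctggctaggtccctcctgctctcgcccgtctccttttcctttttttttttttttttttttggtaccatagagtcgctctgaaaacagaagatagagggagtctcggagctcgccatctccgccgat
In this Pcp2 window the match was AGGTCA from 12 to 7 bases before the start, and each of the windows of the 3 other Pcp2 starts also held 1 match (AGGTCA in 2 of them, GGGTCA on the opposite strand in 1), the AGGTCA of the second start being the same site as that of the first. In Pcp4 it was AGGTCA on the opposite strand, from 164 to 159 bases before the start. The Rora window held neither motif. A match is a description of letters and says nothing of binding. It was found alike in the gene of the 7 with the largest coronal difference and in the gene without one.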

How the data were processed

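The deposited array files hold processed spot intensity values that, per the file headers, came from Agilent Feature Extraction 10.5.1.1 with background subtraction. The authors also deposited a table of log2 values (44721 probes), which equalled log2 of that signal after the same scaling to the array's 75th percentile, within a small offset per array. Here the arrays were read directly: outlier spots were left out, log2 was taken after averaging spots of a probe, and the 75th percentile was subtracted. No spot was saturated, and 24822 to 34240 probes were well above background per array; with 1 array per position, their number limits the precision. A probe was tested when each series had 1 or more fractions with it well above background and no array had lost all its spots to outlier flags (130 probes left out), which gave 32364 probes. Accessions were matched to RefSeq symbols (GRCm38.p6, for names), which named 27235 of 55681 probes.

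Trends (natural splines) and differences were fitted with limma 3.58.1 in R 4.3.3 over all probes, with Benjamini-Hochberg adjusted p-values and a threshold of 0.05, next to exact permutation tests for single genes. Fits were tested on simulated data. All 7 members were named, as were up to 4 genes with the largest coronal difference of a list (some are not reported here) and the 3 genes with the highest r to a member. The members, lists and tests were chosen with earlier results of these data known. A ratio of the highest to the lowest fraction is a bound where the lowest was not well above background, taken against the lowest signal well above background on that array; differences of means use the measured values.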

Additional observations from a re-analysis of the deposited data

Results flagged for a closer look

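Within the horizontal and sagittal series of the 7 genes (14 sets of 6 or 10 fractions), 5 sets had a lowest fraction far from the rest by Dixon's ratio, the gap to the nearest fraction over the whole range. Chance flags about 1 in 20 sets, and fractions of 1 series are different positions, not replicates. Sagittal fraction 1 stood apart for Pcp2 (ratio 0.693, level 0.15 against a nearest of 5.51), Ppp1r17 (0.628, -6.00 against -1.10) and Calb1 (0.555, -3.82 against -1.89). Horizontal fraction 1 stood apart for Pcp4 (0.718, 5.63 against 6.86) and Ppp1r17 (0.631, -5.84 against -1.27). Calb1 and Ppp1r17 were not well above background in these fractions, so their ratios are not exact. For Ppp1r17 in horizontal fraction 1, the ratio of 0.631 barely passed the critical value of 0.625. Its level lay below the lowest signal well above background on that array (-3.639). That flag, and with it the count of 5 sets, rests on a value within background. Sagittal fraction 1 had the dimmest array (75th percentile signal 135.2), whose part in the low values was not tested.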

How the results depend on the processing

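The calls of Pcp2, Car8 and Ppp1r17 as higher in coronal fractions 1 to 4 held under every alternative run. The coronal difference of Pcp4 turned sign: -0.01 under normexp, -0.10 with slide as a term and on fractions 3 to 10 alone, -0.01 on fractions 1 to 4 against 5 to 10 (added after seeing the data), and -0.08 to 0.17 with 1 fraction left out. Against Pcp2, Car8 lost its call with fractions 1 to 3 against 4 to 12 (-2.41, adjusted p = 0.0627), and Ppp1r17 under 6 alternatives (-0.70 to -1.25). Calb1 also lost its coronal difference without the filter on dim probes (adjusted p = 0.056), and Rora its coronal trend on fractions 3 to 10 alone (0.0725). The mean of both probes took Car8 out of the horizontal calls (0.054), as did a straight line for Car8 (0.925) and Itpr1 (0.597). Calb1 lost its sagittal trend with the array median, quantile normalization, slide or a simpler spline (0.0534 to 0.0842), and Ppp1r17 with quantile normalization (0.0609) or slide (0.0675). With the array median, 5 more genes had a horizontal trend (Pcp2, Calb1, Pcp4, Rora and Ppp1r17, adjusted p = 0.00977 to 0.0197); normexp added the same genes but Calb1 (0.0197 to 0.0343), and quantile normalization Pcp4 (0.038). A sagittal trend was gained with normexp by Pcp2, Itpr1 and Rora (0.0103 to 0.0209), with quantile normalization by Itpr1 (0.0363), and without the filter by Itpr1 (0.0464) and Rora (0.045). In sagittal fractions 5 to 10 alone none of the 7 genes was called.

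Probes called over all genes moved as follows. Coronal trend: 17330 without the filter, 241 with slide, 4164 on fractions 3 to 10, and 7938 to 11145 with a fraction left out. Horizontal trend: 19347 with the array median, 9066 with normexp, 1 with a straight line (3698 at unadjusted p under 0.05), and 0 to 5754 with a fraction left out; the 0 came without horizontal fraction 3 (10053 at unadjusted p under 0.05 in limma) or 4 (7679). Sagittal trend: 337 with the array median, 2627 with quantile normalization, 14295 with normexp, 19184 without the filter, 2520 with slide, 0 on fractions 5 to 10 (2821 at unadjusted p under 0.05 in limma), and 0 to 15244 with a fraction left out, the 0 without sagittal fraction 1 (5955). Coronal difference, higher and lower: 1185 and 1042 without the filter, 407 and 390 with slide, 71 and 21 on fractions 3 to 10, 3086 and 3345 against fractions 5 to 10, and 743 to 2337 and 660 to 2431 with a fraction left out. Less caudal than Pcp2: 55535 without the filter. The share of coronal calls that were higher was 53.4%, and 47.7% to 55.0% under other scalings. The cause of these shifts was not tested. No paired analysis was possible because a fraction number names a position along another axis in another mouse, and the planes were not compared with each other.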
